A study of Mus musculus with 8 samples.

Results

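The 10 genes described here work in germ cells and were listed as genes whose promoters DNA methylation keeps silent in other cells. They were followed across 4 kinds of mouse samples. The genes were taken from a list of symbols (Dazl, Ddx4, Sycp3, Hormad1, Piwil2, Mael, Asz1, Tdrkh, Stk31 and Gtsf1l), and a gene was read from the probe sets annotated to it alone. Of the 10, 9 had 1 such probe set each among 22180 genes, and all 9 were bright enough to be tested. The probe set of Sycp3 is also annotated to another gene, so Sycp3 is not analysed here.

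Total RNA was measured on Affymetrix Mouse Gene 2.1 arrays, with 2 arrays in each of 4 groups of wild type C57BL/6J samples. FGF-ESC are lines from day 3.5 embryos kept in KODMEM with 20% KSR (a serum replacement) and FGF2 on MEF, the embryonic fibroblasts used as feeders. ESC, the naive kind of stem cell, grew in DMEM with 15% FCS and 2i/LIF and without MEF, where 2i is a pair of kinase inhibitors. EpiSC, the primed kind, grew in the same medium as FGF-ESC, also on MEF, and are labelled as coming from day 3.5 embryos like the other lines. ICM is the inner cell mass of day 3.5 blastocysts, freed of trophectoderm by immunosurgery and not cultured. How many lines, clones or pooled embryos stand behind an array is not given in the sources used here, so p-values reflect how far these arrays varied, and that variation may be technical. ICM RNA was extracted with another kit (NucleoSpin XS) than RNA of the cultures (NucleoSpin II), so kit and ICM cannot be told apart, nor can medium, feeders and cell type between ESC and the other cultures.

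Values are log2 intensities, on which a difference of 1 is a doubling. The median over all values was 4.24. A mean below it was taken as near background, and a difference against such a mean depends on that floor. A gene passed the test at an adjusted p below 0.05 and a difference of at least 1 in either direction, in limma over 13597 genes. Errors of a difference are SEs from the spread pooled over the 4 groups, with n = 2 arrays per group throughout. Levels of different probe sets are not comparable with each other, so each gene is compared with itself.

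Germ cells share a programme that other tissues keep off. Many of its promoters are rich in CpG dinucleotides, and in somatic cells these are methylated, which blocks transcription. In early embryos and stem cells, before or beside methylation, the same promoters are also bound by repressor complexes that hold E2F6, MGA, MAX and PCGF6. In them E2F6 recognises an E2F site and MGA with MAX an E-box, while PCGF6 is a Polycomb subunit. The list falls into RNA regulators of germ cells (Dazl, Ddx4), proteins of the meiotic chromosome axis (Sycp3, Hormad1) and proteins of the piRNA pathway (Piwil2, Mael, Asz1, Tdrkh), which silences transposons with small RNAs, with Stk31 and Gtsf1l beside them. DNA methylation and protein binding were not measured in these samples.

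RefSeq promoter windows (GRCm38.p6) were found for 9 of the 10 genes, and Piwil2 had none. The 250 bases before the gene start are shown for 5 genes whose levels differed in different groups. They lie directly upstream of the annotated start and run 5′ to 3′ on the gene's strand. Capitals mark TCCCGC or its reverse complement GCGGGA, the core of the E2F6 site, and CACGTG, the E-box of MGA and MAX, which is its own reverse complement. The marked sites do not overlap.
Hormad1 (chr3:95559427-95559676, plus strand): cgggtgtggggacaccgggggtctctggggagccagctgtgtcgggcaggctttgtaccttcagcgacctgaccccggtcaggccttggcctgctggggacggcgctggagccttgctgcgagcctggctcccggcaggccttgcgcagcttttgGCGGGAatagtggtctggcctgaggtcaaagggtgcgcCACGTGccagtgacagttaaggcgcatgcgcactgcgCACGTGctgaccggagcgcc
Ddx4 (chr13:112652311-112652560, minus strand): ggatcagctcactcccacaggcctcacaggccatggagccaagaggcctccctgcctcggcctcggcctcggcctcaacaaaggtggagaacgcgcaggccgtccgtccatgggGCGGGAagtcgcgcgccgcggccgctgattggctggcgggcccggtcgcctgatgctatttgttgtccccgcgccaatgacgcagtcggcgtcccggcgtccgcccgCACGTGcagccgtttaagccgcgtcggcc
Mael (chr1:166238745-166238994, minus strand): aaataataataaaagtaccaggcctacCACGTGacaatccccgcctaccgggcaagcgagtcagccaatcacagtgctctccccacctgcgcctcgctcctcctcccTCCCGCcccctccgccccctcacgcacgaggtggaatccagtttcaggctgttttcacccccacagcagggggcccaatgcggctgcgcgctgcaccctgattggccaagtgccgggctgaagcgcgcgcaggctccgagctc
Tdrkh (chr3:94412994-94413243, plus strand): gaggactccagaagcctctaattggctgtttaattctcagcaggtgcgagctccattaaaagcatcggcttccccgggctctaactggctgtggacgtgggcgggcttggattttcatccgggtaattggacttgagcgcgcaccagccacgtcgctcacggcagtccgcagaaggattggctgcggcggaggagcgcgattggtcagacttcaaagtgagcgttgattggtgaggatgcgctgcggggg
Gtsf1l (chr2:163089602-163089851, minus strand): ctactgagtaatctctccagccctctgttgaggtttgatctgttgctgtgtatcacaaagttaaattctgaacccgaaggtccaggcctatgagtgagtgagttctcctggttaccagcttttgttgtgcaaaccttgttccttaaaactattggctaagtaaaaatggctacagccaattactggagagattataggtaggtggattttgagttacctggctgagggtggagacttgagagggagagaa

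Hormad1 held 1 E2F6 core and 2 E-boxes in that window, while Ddx4 and Mael held 1 of each. Sycp3 also held both kinds, and Stk31 an E-box alone. Thus 4 of the 9 windows held both motifs, which 1.97% of 17491 protein-coding genes did. An E2F6 core was present in 21.6% of those genes and an E-box in 6.64%. Dazl, Tdrkh, Asz1 and Gtsf1l held neither, which says only that these letters are not in these windows. The number of CpG dinucleotides ran from 12 to 31 in 8 of the windows, with 31 in Ddx4, 20 in Dazl, 19 in Hormad1 and Tdrkh and 15 in Asz1. The median over protein-coding genes was 10. Gtsf1l had 1, fewer than most genes, since 7.34% of protein-coding windows had a lower number. Its window thus holds little CpG that could be methylated, although it was listed with the others. Both motifs contain a CpG, so the motif and CpG counts are not independent.

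**Figure D1:**
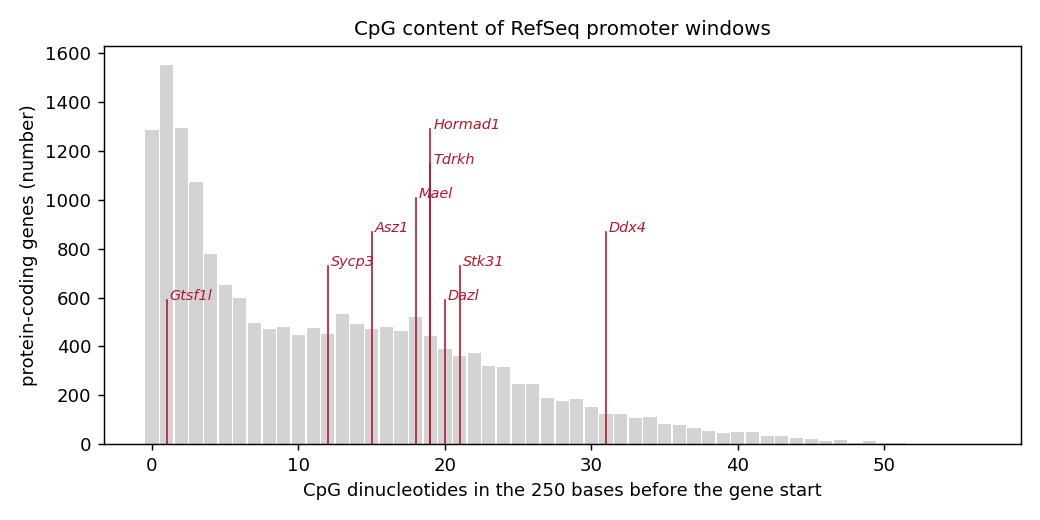
Number of protein-coding genes (y axis) by CpG dinucleotides in the 250 bases before the gene start (x axis), with the listed genes as red lines whose height has no meaning. Gtsf1l sits at 1, the other 8 between 12 and 31.

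Across the series the germline genes did not share a profile. Hormad1, Ddx4, Dazl and Piwil2 had their highest mean in FGF-ESC, Mael, Stk31 and Asz1 in ICM, and Tdrkh in EpiSC. Gtsf1l was bright in FGF-ESC, ESC and ICM and dim in EpiSC. This grouping was made from the values and is a description. Several genes were tested because of the group where they are bright: Asz1 and Stk31 were above 4.24 on 2 arrays, both ICM, Tdrkh on 2, both EpiSC, and Piwil2 on 2, both FGF-ESC. Dazl was above it on both FGF-ESC arrays and ESC replicate 1, and Mael on both ICM arrays and FGF-ESC replicate 2. Without their brightest group these 2 would not have been tested either. Counts over the 9 genes, and calls of these genes against that group, are therefore not support for a difference.

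**Figure D2:**
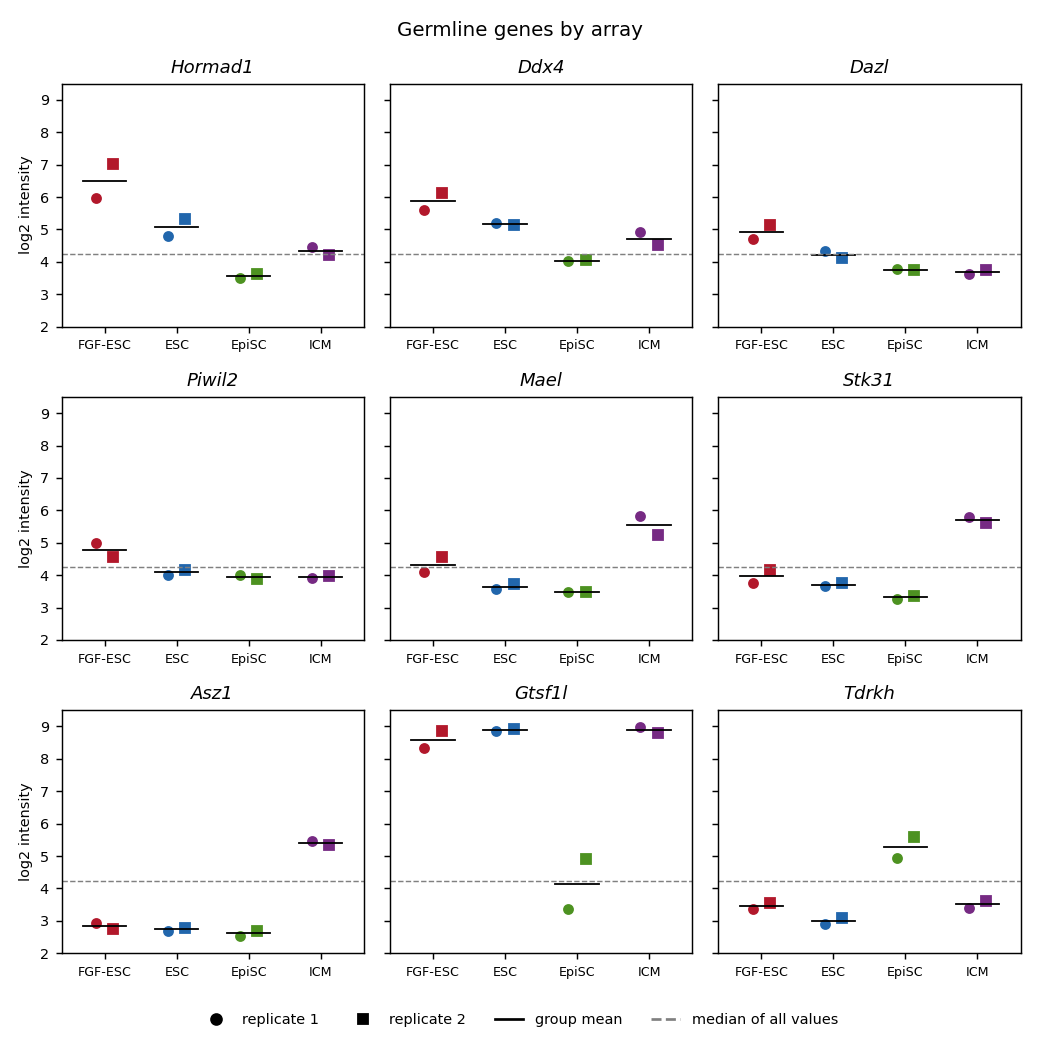
Log2 intensity (y axis) of 9 germline genes on each array, with FGF-ESC, ESC, EpiSC and ICM from left to right, circles and squares for replicates 1 and 2, a bar for the group mean and a dashed line at 4.24, the median of all values. Asz1 and Stk31 stand out in ICM, Tdrkh in EpiSC and Hormad1 in FGF-ESC.

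Levels of genes listed as fibroblast markers differed between the groups and stand beside every difference of FGF-ESC. Which cells their RNA came from was not tested. Averaged over 29 fibroblast genes, the level was 8.61 and 7.44 for FGF-ESC, 4.51 and 4.52 for ESC, 5.05 and 5.30 for EpiSC, and 4.47 and 4.65 for ICM. Both FGF-ESC arrays were above 4.24 for 28 of them, both ESC arrays for 13, both EpiSC arrays for 21 and both ICM arrays for 14. Their part in the differences of the germline genes was not tested. In such bulk samples fewer cells of a type and less RNA per cell cannot be told apart. Between ESC and EpiSC the marker lists mostly followed the labels. Of 15 naive genes 13 were higher in ESC and 1 lower, where 3.5% of all tested genes were higher and 3.86% lower. Of 14 primed genes 10 were lower there and 1 higher. Of those lower, Fgf5, Fgf8 and Cer1 were above 4.24 on the EpiSC arrays alone, and Foxa2 on these and ICM replicate 2. They were thus tested because of EpiSC, and their calls in this count are not support for a difference. In FGF-ESC minus ESC, 4 naive genes were lower and 0 higher, and 3 primed genes higher and 0 lower. Over all tested genes 0.934% were lower and 5.27% higher. In FGF-ESC minus EpiSC, 12 naive genes were higher and 0 lower, and 8 primed genes lower and 0 higher. Fgf5, Fgf8, Cer1 and Foxa2 were again among those lower, with the same limit. All tested genes there were 5.26% higher and 2.02% lower. Klf4, a naive factor, was at 8.44 and 8.59 for FGF-ESC and at 8.61 and 8.56 for ESC. It was at 4.55 and 4.82 for EpiSC and at 7.23 and 7.11 for ICM. Fgf5, a primed marker, was at 5.72 and 6.07 in EpiSC and between 2.87 and 3.43 on the other 6 arrays.

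Dazl, an RNA-binding protein that promotes translation in germ cells, was highest in FGF-ESC. Its probe set (17345880) read 4.72 and 5.14 for FGF-ESC, 4.33 and 4.11 for ESC, 3.78 and 3.75 for EpiSC, and 3.63 and 3.76 for ICM. Both FGF-ESC arrays were above all 6 others, and the EpiSC and ICM arrays overlapped near background. Dazl was higher in FGF-ESC than in EpiSC by 1.17 ± 0.16 (adjusted p = 0.00199) and than in ICM by 1.23 ± 0.16 (adjusted p = 0.000618). Against EpiSC the difference was 0.96, under the minimum, without FGF-ESC replicate 2. Against ESC it was 0.71 ± 0.16 (adjusted p = 0.0232), under the minimum of 1. EpiSC and ICM differed by 0.07 (95% interval -0.30 to 0.44).

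Ddx4, the mouse Vasa helicase and a marker of germ cells, followed the same order at the top. It read 5.61 and 6.14 for FGF-ESC, 5.20 and 5.15 for ESC, 4.02 and 4.05 for EpiSC, and 4.93 and 4.51 for ICM (probe set 17296225). The 4 groups did not overlap, with EpiSC lowest and under the background level on both arrays. Ddx4 was higher in FGF-ESC than in EpiSC by 1.84 ± 0.20 (adjusted p = 0.000579) and than in ICM by 1.15 ± 0.20 (adjusted p = 0.00242). The difference from ICM was 0.89 without FGF-ESC replicate 2 and 0.95 without ICM replicate 2, both under the minimum. ESC were also above EpiSC, by 1.14 ± 0.20 (adjusted p = 0.00485). FGF-ESC minus ESC was 0.70 ± 0.20 (adjusted p = 0.0481) and EpiSC minus ICM -0.68 ± 0.20 (adjusted p = 0.0251), both short of the minimum.

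Hormad1, a HORMA-domain protein that coats the chromosome axis in meiosis and is needed for pairing and recombination there, differed most among the genes highest in FGF-ESC. It read 5.96 and 7.02 for FGF-ESC, 4.81 and 5.32 for ESC, 3.49 and 3.63 for EpiSC, and 4.46 and 4.21 for ICM (probe set 17400386). No 2 groups overlapped, but the FGF-ESC arrays lay 1.06 apart. Hormad1 was higher in FGF-ESC than in EpiSC by 2.93 ± 0.32 (adjusted p = 0.000611, 7.61-fold) and than in ICM by 2.15 ± 0.32 (adjusted p = 0.00113, 4.45-fold). Against ESC it was higher by 1.42 ± 0.32 (adjusted p = 0.0217), and it was the 1 germline gene of the list to pass there. That call was lost without FGF-ESC replicate 2 (0.89, under the minimum), without ESC replicate 1 (adjusted p = 0.168) or ESC replicate 2 (adjusted p = 0.0725), and in a fit of these 2 groups alone (adjusted p = 0.0882), within a range of 0.000978 to 0.168 over its alternatives. ESC were above EpiSC by 1.51 ± 0.32 (adjusted p = 0.0124), a call lost without ESC replicate 2 (0.109), EpiSC replicate 1 (0.0858) or EpiSC replicate 2 (0.0617), in a range of 0.000542 to 0.109.

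Piwil2, known as MILI, is a PIWI protein that binds piRNAs. It read 4.98 and 4.56 for FGF-ESC, 4.01 and 4.16 for ESC, 3.998 and 3.87 for EpiSC, and 3.92 and 3.98 for ICM (probe set 17308319). The FGF-ESC arrays were above all others, and the other 3 groups lay together under 4.24. The differences of FGF-ESC were 0.69 ± 0.16 from ESC (adjusted p = 0.0236), 0.84 ± 0.16 from EpiSC (adjusted p = 0.00774) and 0.82 ± 0.16 from ICM (adjusted p = 0.00439), all under the minimum of 1. Without FGF-ESC replicate 2 the last 2 of these were 1.05 and 1.03, and both passed. Among ESC, EpiSC and ICM the differences ran from -0.02 to 0.15, with 95% intervals that reached from -0.38 to 0.51.

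Mael, the mouse maelstrom protein of piRNA granules, was highest in ICM. It read 4.09 and 4.55 for FGF-ESC, 3.57 and 3.73 for ESC, 3.49 and 3.47 for EpiSC, and 5.84 and 5.25 for ICM (probe set 17229315). The ICM arrays were above all 6 cultured arrays, and FGF-ESC stood between them and the other cultures. Mael was lower than in ICM by a log2 difference of -1.22 ± 0.22 in FGF-ESC (adjusted p = 0.00296), -1.89 ± 0.22 in ESC (adjusted p = 0.000377) and -2.07 ± 0.22 in EpiSC (adjusted p = 0.000157). The first of these was -0.99 without FGF-ESC replicate 1 and -0.93 without ICM replicate 1, under the minimum. The ESC and EpiSC arrays were all under 4.24, so the sizes of differences with these groups depend on the floor. FGF-ESC minus ESC was 0.67 ± 0.22 (adjusted p = 0.073). FGF-ESC minus EpiSC was 0.84 ± 0.22 (adjusted p = 0.0282), and it passed at 1.08 without FGF-ESC replicate 1.

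Asz1, known as GASZ, is a scaffold of piRNA granules at mitochondria, and it was above the background level in ICM alone. Its probe set (17464986) read 2.92 and 2.74 for FGF-ESC, 2.67 and 2.79 for ESC, 2.54 and 2.69 for EpiSC, and 5.45 and 5.34 for ICM. All 6 cultured arrays were under the background level. Asz1 was lower than in ICM by -2.56 ± 0.13 in FGF-ESC (adjusted p = 5.03e-06), -2.66 ± 0.13 in ESC (adjusted p = 4.47e-06) and -2.79 ± 0.13 in EpiSC (adjusted p = 2.14e-06). Against a dim group these sizes depend on the floor. The cultures differed from each other by 0.10 to 0.22, with adjusted p from 0.273 to 0.643.

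Stk31, a germ cell protein with a Tudor domain and a kinase-like domain, was like Asz1 and Mael in being highest in ICM. It read 3.77 and 4.17 for FGF-ESC, 3.67 and 3.75 for ESC, 3.27 and 3.36 for EpiSC, and 5.79 and 5.61 for ICM (probe set 17458486). Every cultured array was under 4.24. Stk31 was lower than in ICM by -1.73 ± 0.15 in FGF-ESC (adjusted p = 8.51e-05), -1.99 ± 0.15 in ESC (adjusted p = 5.11e-05) and -2.39 ± 0.15 in EpiSC (adjusted p = 1.17e-05). FGF-ESC minus EpiSC was 0.65 ± 0.15 (adjusted p = 0.0207), short of the minimum.

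Tdrkh, a Tudor protein at mitochondria needed to trim piRNA ends, ran against the rest. It read 3.36 and 3.54 for FGF-ESC, 2.90 and 3.10 for ESC, 4.95 and 5.59 for EpiSC, and 3.40 and 3.62 for ICM (probe set 17400072). The 2 EpiSC arrays were above 4.24 and the other 6 were below it. Tdrkh was lower than in EpiSC by -1.82 ± 0.21 in FGF-ESC (adjusted p = 0.000787) and by -2.27 ± 0.21 in ESC (adjusted p = 0.000192). EpiSC were above ICM by 1.76 ± 0.21 (adjusted p = 0.000293). FGF-ESC and ICM overlapped, at a difference of -0.06 (95% interval -0.54 to 0.41) whose sign turned with quantile normalization (0.03).

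Gtsf1l is a paralogue of Gtsf1, a zinc finger protein that works with PIWI proteins. It was bright in 3 of the 4 groups, at 8.32 and 8.84 for FGF-ESC, 8.87 and 8.92 for ESC, 3.37 and 4.90 for EpiSC, and 8.98 and 8.81 for ICM (probe set 17394008). EpiSC stood apart from the other 6 arrays by over 3 on the log2 scale, although the EpiSC arrays lay 1.53 apart, 1 under and 1 above 4.24. Gtsf1l was higher than in EpiSC by 4.45 ± 0.41 in FGF-ESC (adjusted p = 0.000328, 21.8-fold) and by 4.76 ± 0.41 in ESC (adjusted p = 0.000153, 27.1-fold). EpiSC minus ICM was -4.76 ± 0.41 (adjusted p = 5.71e-05). FGF-ESC minus ESC was -0.31 (95% interval -1.26 to 0.64), ESC minus ICM 0.00 (-0.95 to 0.95) and FGF-ESC minus ICM -0.31 (-1.26 to 0.64). The pooled SE is wide here because of EpiSC, with an SD of 1.08 against 0.37 in FGF-ESC, 0.03 in ESC and 0.12 in ICM.

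Gtsf1l had the widest range of group means of the 9 genes. The 5 tested genes most like it, by Pearson r over the 8 arrays among 1040 genes with group means at least 2 apart, were Gm21082 (r = 0.997), Zfp459 (0.985), Klf5 (0.981), Rps4l (0.981) and Zfp979 (0.981). Klf5, a Krüppel-like factor of naive stem cells, was at 9.32 and 9.59 for FGF-ESC, 9.53 and 9.56 for ESC, 6.66 and 7.63 for EpiSC, and 10.04 and 10.16 for ICM. The points are 8 arrays of 4 groups, with EpiSC at 1 end, and r is a description. Zinc finger genes and Rps4l have close relatives, so which copy is read is uncertain.

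Set side by side, the comparisons of FGF-ESC share the FGF-ESC arrays. Against ESC, 1 of the 9 genes was higher and 0 lower, where 6.21% of 13597 tested genes passed in either direction, 5.27% higher and 0.934% lower. By adjusted p alone 4 of the 9 passed, and 15.3% of all genes. The median difference of the 9 was 0.67, against -0.06 over all tested genes, and 8 of the 9 had a difference above 0. Against EpiSC, 4 were higher (Gtsf1l, Hormad1, Ddx4, Dazl) and 1 lower (Tdrkh), where 7.28% of genes passed, 5.26% higher and 2.02% lower. By adjusted p alone it was 8 of the 9, and 19.8% of all genes. The median was 0.84, against -0.04. Against ICM, 3 were higher (Hormad1, Dazl, Ddx4) and 3 lower (Asz1, Stk31, Mael), where 14.8% passed, 9.57% higher and 5.22% lower. By adjusted p alone it was 7 of the 9, and 36.7% of all genes. The median of -0.06, against -0.02 over all genes, thus hides differences in both directions.

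In the comparisons without FGF-ESC, ESC minus EpiSC gave 3 higher genes (Gtsf1l, Hormad1, Ddx4) and 1 lower (Tdrkh), with 7.36% of all genes passing (3.5% higher, 3.86% lower). By adjusted p alone 4 of the 9 and 19% of all genes passed. ESC minus ICM gave 0 higher and 3 lower (Asz1, Stk31, Mael), with 11.4% passing (5.82% higher, 5.57% lower). By adjusted p alone 4 of the 9 and 33% of all genes passed. Of the other genes there, Dazl had 0.52 ± 0.16 (adjusted p = 0.0375) and Hormad1 0.73 ± 0.32 (adjusted p = 0.116). EpiSC minus ICM gave 1 higher (Tdrkh) and 4 lower (Gtsf1l, Asz1, Stk31, Mael), with 15.3% passing (8.48% higher, 6.8% lower). By adjusted p alone 6 of the 9 and 38.4% of all genes passed. Medians were 0.39, 0.00 and -0.78 in that order of comparisons, against 0.005, 0.02 and 0.01 over all genes.

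**Figure D3:**
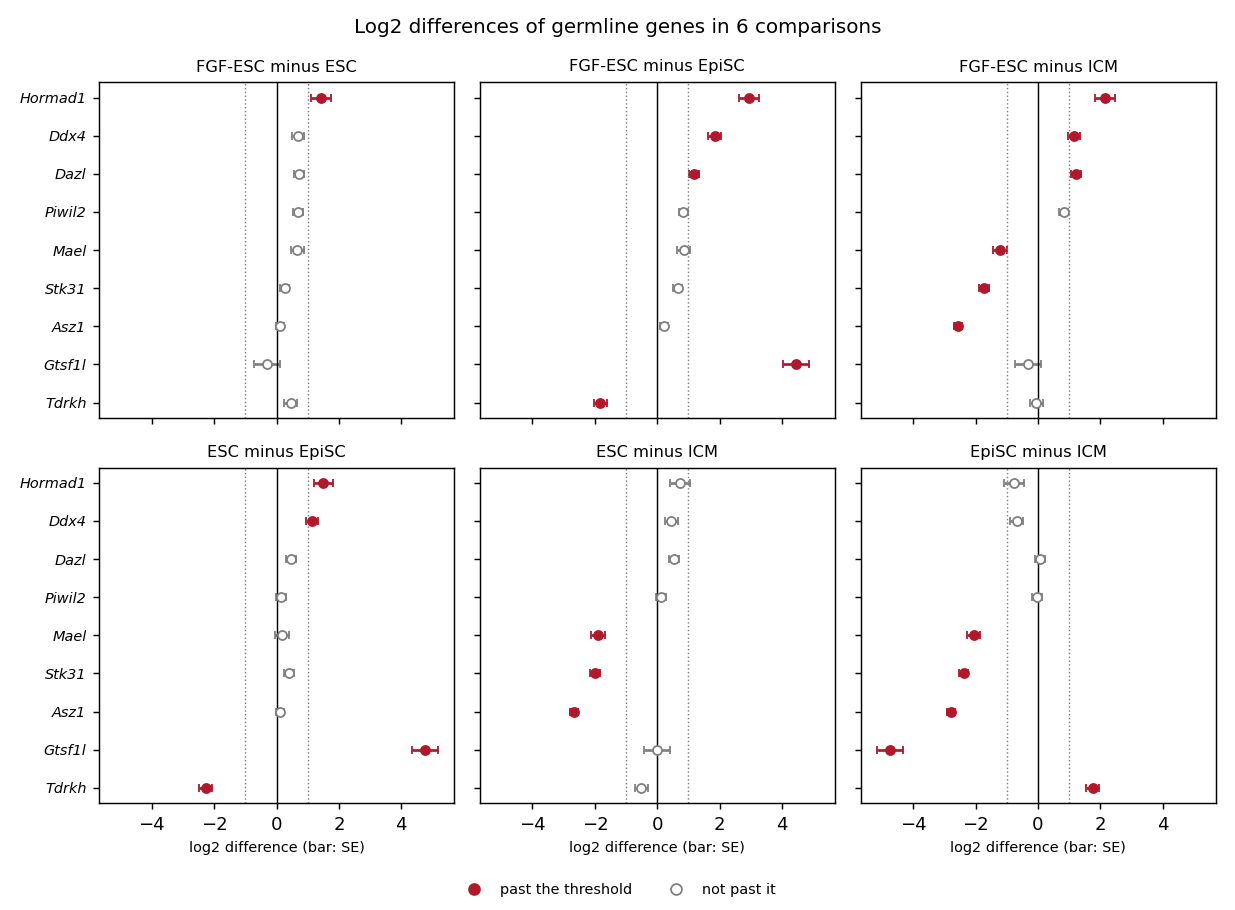
Log2 difference (x axis, bar for SE) of 9 germline genes (y axis) in the 6 comparisons, each titled with the group on top of the difference first. Filled red points passed the test, and dotted lines mark the minimum of 1 either way. Asz1, Stk31 and Mael lie left of 0 in the 3 panels against ICM, and Gtsf1l lies beyond 4 in size in the 3 panels with EpiSC.

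Markers of other cells that an inner cell mass could hold or carry had higher mean levels on the ICM arrays, but single genes of the lists differed. The mean of 12 trophectoderm genes was 4.81 and 4.73 for FGF-ESC, 5.01 and 4.93 for ESC, 5.03 and 5.07 for EpiSC, and 5.83 on both ICM arrays, with 9, 7, 8 and 11 of the 12 above 4.24 on both arrays of those groups. Elf5 was too dim to be tested. Of the 11 tested, 0 were higher and 4 lower in ESC than in ICM, 0 and 4 in EpiSC, and 0 and 7 in FGF-ESC. Over all tested genes 11.4%, 15.3% and 14.8% passed there. Tead4 did not follow between ESC and ICM, at 7.90 and 7.84 for ESC and 7.21 and 7.64 for ICM. The mean of 12 primitive endoderm genes was 5.54 and 5.12 for FGF-ESC, 4.56 and 4.65 for ESC, 4.82 and 4.90 for EpiSC, and 5.84 and 5.91 for ICM. Of 20 oocyte genes, 12 were under 4.24 on all 8 arrays, and the zona genes Zp1 and Zp2 were too dim to be tested. Their mean was 3.73 and 3.79 for FGF-ESC, 3.90 and 3.85 for ESC, 3.63 and 3.64 for EpiSC, and 4.14 and 4.05 for ICM. One of them, Khdc3, a maternal protein of the egg cortex, was at 4.61 and 4.15 for FGF-ESC, 4.16 and 4.02 for ESC, 3.82 and 3.65 for EpiSC, and 9.11 and 9.29 for ICM. Other oocyte genes did not follow it: Ooep, also of the egg cortex, was at 6.69 and 7.196 for FGF-ESC, 7.71 and 7.56 for ESC, 5.36 and 5.22 for EpiSC, and 6.12 and 6.29 for ICM. Ooep was higher in ESC than in ICM by 1.43 ± 0.18 (adjusted p = 0.000547). Zp3, another zona gene, had an ESC minus ICM difference of 0.95 ± 0.23 (adjusted p = 0.0133), under the minimum. Of the 6 oocyte genes tested, 0 were higher and 1 lower in FGF-ESC than in ICM. The counts were 1 and 1 in ESC and 0 and 1 in EpiSC, and the lower gene was Khdc3 each time. Khdc3 was above 4.24 on the ICM arrays and FGF-ESC replicate 1 alone. It was thus tested because of ICM, and its calls in these counts are not support for a difference. Over all tested genes 14.8%, 11.4% and 15.3% passed in those comparisons. The higher oocyte mean of ICM thus rests largely on Khdc3. The part of these cells or of maternal RNA in the ICM levels of Mael, Asz1 and Stk31 was not tested.

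Other genes listed for the piRNA pathway also differed in different directions. Of 24 listed, 23 had a probe set of their own and 15 were tested. The PIWI genes Piwil1 and Piwil4 and the Tudor genes Tdrd1, Tdrd5, Tdrd6 and Tdrd9 were too dim to be tested, and so was Gtsf1. In FGF-ESC 2 rose and 0 fell against ESC, 2 rose and 1 fell against EpiSC, and 5 rose and 2 fell against ICM. Over all tested genes 6.21%, 7.28% and 14.8% passed in that order. List medians were -0.03, 0.48 and -0.12, against -0.06, -0.04 and -0.02 over all tested genes. The 2 rises against ESC were 1 without either FGF-ESC array and 0 without either ESC array, and the counts against ICM were 3 and 1 without ICM replicate 1. ESC minus EpiSC gave 3 higher and 1 lower, where 3.5% of all tested genes were higher and 3.86% lower. The gene lower than in EpiSC was Ddx25 for FGF-ESC and for ESC.

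Rnf17, a Tudor protein of male germ cells, had the order of Hormad1. It was at 7.14 and 7.83 for FGF-ESC, 6.43 and 6.38 for ESC, 3.71 and 3.48 for EpiSC, and 5.71 and 5.63 for ICM. It rose in FGF-ESC by 3.89 ± 0.21 against EpiSC (adjusted p = 3.44e-05) and by 1.81 ± 0.21 against ICM (adjusted p = 0.000336). Against ESC it was higher by 1.08 ± 0.21 (adjusted p = 0.0132), which was 0.74 without FGF-ESC replicate 2 and had an adjusted p of 0.0961 and 0.0992 when ESC replicate 1 or ESC replicate 2 was left out, and 0.0648 in a fit of these groups alone (range 0.000636 to 0.0992). Tdrd12, a Tudor helicase of piRNA production, was at 5.99 and 6.57 for FGF-ESC, 6.80 and 6.67 for ESC, 4.37 and 4.41 for EpiSC, and 4.81 and 4.66 for ICM. It rose by 1.89 ± 0.19 in FGF-ESC and by 2.35 ± 0.19 in ESC against EpiSC. Ddx25, a testis RNA helicase, was highest in EpiSC as Tdrkh was, at 4.33 and 4.85 for FGF-ESC, 4.10 and 4.01 for ESC, 6.32 and 6.13 for EpiSC, and 3.34 and 3.62 for ICM. It was lower in FGF-ESC than in EpiSC, with a difference of -1.63 ± 0.19 (adjusted p = 0.000839).

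Of 32 other meiosis genes all had a probe set of their own, and 19 were tested. In FGF-ESC 2 rose and 0 fell against ESC, 5 rose and 0 fell against EpiSC, and 2 rose and 1 fell against ICM. Over all tested genes 6.21%, 7.28% and 14.8% passed in that order, and the count against ICM was near that share. List medians were -0.05, 0.18 and 0.14, against -0.06, -0.04 and -0.02 over all tested genes. ESC minus EpiSC gave 3 higher and 0 lower, ESC minus ICM 2 and 3, and EpiSC minus ICM 0 and 5. Over all tested genes 7.36%, 11.4% and 15.3% passed there. The 2 rises against ESC were 4 without FGF-ESC replicate 1 and 1 without either ESC array.

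Sycp1, a protein of the synaptonemal complex, was at 5.36 and 5.76 for FGF-ESC, 3.30 and 3.18 for ESC, 2.99 and 3.16 for EpiSC, and 5.37 and 4.94 for ICM. FGF-ESC and ICM were thus high together, and ESC and EpiSC near background. Sycp1 rose in FGF-ESC by 2.32 ± 0.19 against ESC (adjusted p = 0.000292) and by 2.49 ± 0.19 against EpiSC (adjusted p = 0.000124). Stra8, the retinoic acid target that starts meiosis, was at 4.62 and 5.81 for FGF-ESC, 3.71 and 3.49 for ESC, 3.33 and 3.31 for EpiSC, and 3.49 and 3.602 for ICM. Stra8 was above 4.24 on the FGF-ESC arrays alone, and so was tested because of that group. Its calls in the list counts are therefore not support for a difference. It rose in FGF-ESC by 1.89 ± 0.32 against EpiSC (adjusted p = 0.00481) and by 1.67 ± 0.32 against ICM (adjusted p = 0.00433). Against ESC it rose by 1.61 ± 0.32 (adjusted p = 0.0141), which did not pass without ESC replicate 1 (0.0862), without ESC replicate 2 (0.11) or with just both groups fitted (0.074), in a range of 6.59e-05 to 0.11.

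Hsf2bp, which takes part in meiotic recombination, was instead highest in ESC, at 6.28 and 6.90 for FGF-ESC, 7.16 and 7.33 for ESC, 3.75 and 3.62 for EpiSC, and 4.79 and 4.62 for ICM. It was higher by 2.91 ± 0.20 in FGF-ESC and by 3.56 ± 0.20 in ESC than in EpiSC. Syce3 and Tex12, both of the central element of the synaptonemal complex, had their highest means in ICM. Syce3 was at 5.23 and 5.67 for FGF-ESC, 4.64 and 4.60 for ESC, 4.23 and 3.99 for EpiSC, and 6.01 and 5.67 for ICM. Tex12 was above 4.24 on the ICM arrays alone, and so was tested because of that group. Like those of Stra8, its calls in the list counts are not support for a difference. Tex12 was lower than in ICM by -1.39 ± 0.19 in FGF-ESC, -1.44 ± 0.19 in ESC and -1.24 ± 0.19 in EpiSC. The last of these was -0.99 without ICM replicate 2.

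Of 33 other germ cell regulators and testis genes, 31 had a probe set of their own and 16 were tested. In FGF-ESC 1 rose and 2 fell against ESC, 4 rose and 0 fell against EpiSC, and 2 rose and 1 fell against ICM. Over all tested genes 6.21%, 7.28% and 14.8% passed in that order, and the count against ICM was near that share. List medians were 0.06, 0.47 and 0.24, against -0.06, -0.04 and -0.02 over all tested genes. Against ESC the counts of rises and falls were 0 and 3 without FGF-ESC replicate 2, 0 and 0 without ESC replicate 1, and 0 and 1 without ESC replicate 2. Against ICM they were 2 and 0 without FGF-ESC replicate 1 or ICM replicate 1, 1 and 2 without FGF-ESC replicate 2, and 1 and 0 without ICM replicate 2. Sohlh2, a transcription factor of early germ cell differentiation, was at 5.12 and 5.68 for FGF-ESC, 4.12 and 4.14 for ESC, 3.87 and 3.93 for EpiSC, and 3.52 and 4.09 for ICM, the order of Dazl. Sohlh2 was above 4.24 on the FGF-ESC arrays alone, and so was tested because of that group. Its calls in the list counts, with the 1 rise against ESC, are therefore not support for a difference. Sohlh2 rose in FGF-ESC by 1.51 ± 0.22 against EpiSC and by 1.60 ± 0.22 against ICM. Against ESC it rose by 1.27 ± 0.22 (adjusted p = 0.00884), a call lost without FGF-ESC replicate 2 (0.996), ESC replicate 1 (adjusted p = 0.0831) or ESC replicate 2 (adjusted p = 0.0739), in a range of 0.0031 to 0.0831. Rpl10l, a testis ribosomal protein with a close relative, had the low EpiSC level of Gtsf1l, at 6.71 and 7.04 for FGF-ESC, 6.70 and 6.84 for ESC, 2.95 and 4.27 for EpiSC, and 8.21 and 8.25 for ICM.

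**Figure D4:**
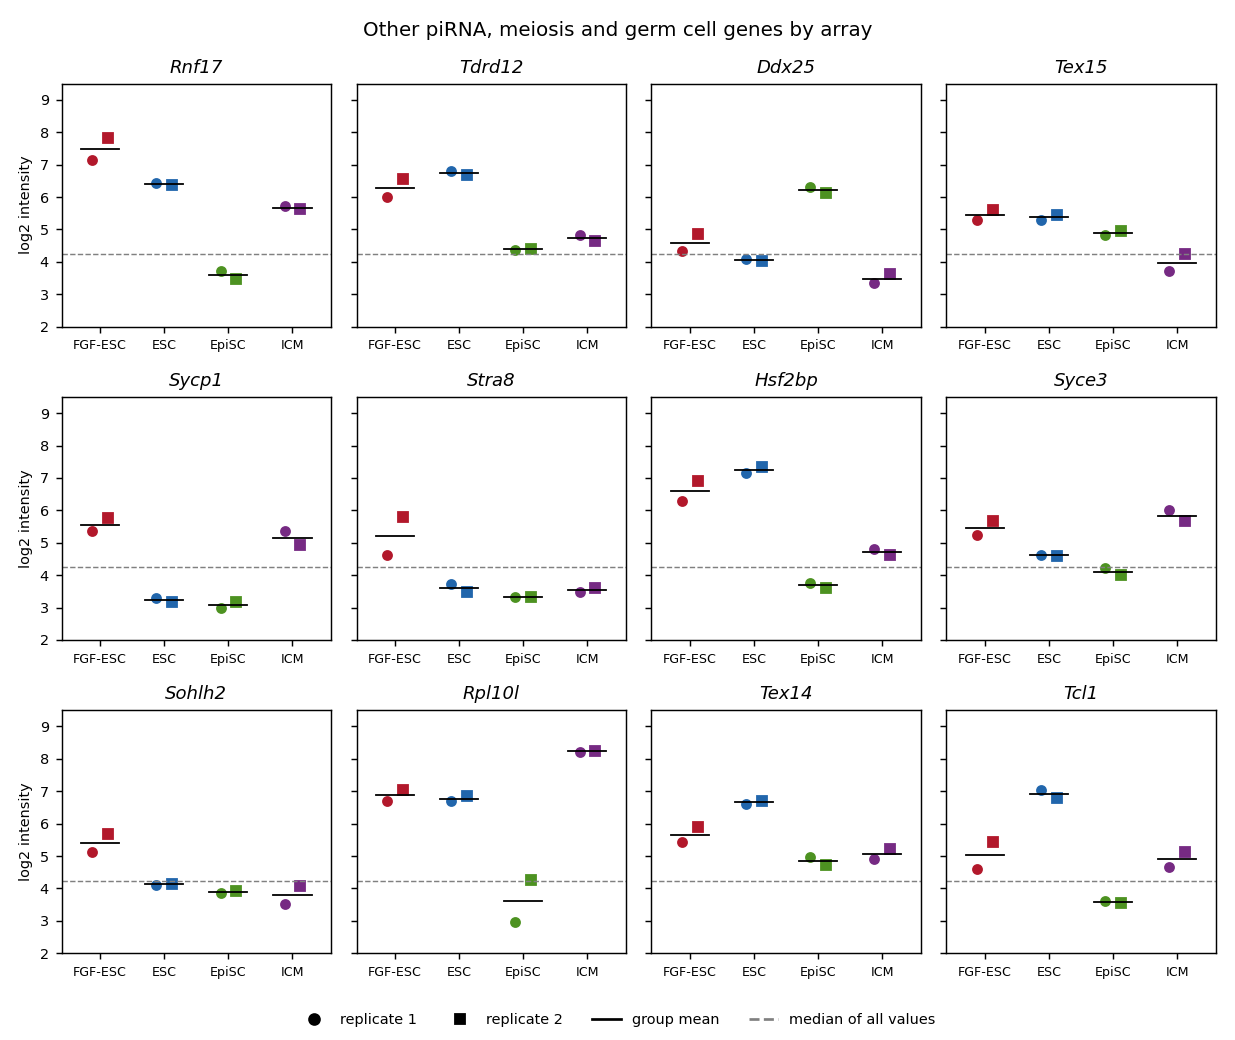
Log2 intensity (y axis) of 12 other germline genes on each array, with groups from left to right as FGF-ESC, ESC, EpiSC and ICM, symbols for replicates, bars for means and a dashed line at 4.24. Rnf17, Stra8 and Sohlh2 are highest in FGF-ESC, Ddx25 in EpiSC and Rpl10l lowest in EpiSC.

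The enzymes that write methylation differed between the groups. Dnmt3b, a de novo methyltransferase, was at 8.87 and 8.59 for FGF-ESC, 7.76 and 7.71 for ESC, 9.82 and 9.64 for EpiSC, and 7.88 and 8.05 for ICM. Dnmt3a, its relative, was at 7.01 and 6.98 for FGF-ESC, 6.17 and 6.10 for ESC, 7.48 and 7.44 for EpiSC, and 6.61 and 6.52 for ICM. FGF-ESC thus stood between ESC and EpiSC for both. Their difference from ESC was 0.999 ± 0.141 for Dnmt3b (adjusted p = 0.00358) and 0.86 ± 0.11 for Dnmt3a (adjusted p = 0.0024), short of the minimum, and ESC minus EpiSC was -1.996 ± 0.141 and -1.33 ± 0.11. Dnmt3l, a cofactor without enzyme activity, ran the other way, at 5.91 and 5.71 for FGF-ESC, 7.22 and 6.999 for ESC, 4.49 and 4.45 for EpiSC, and 5.80 and 6.02 for ICM. It fell in FGF-ESC against ESC with a difference of -1.30 ± 0.14 (adjusted p = 0.00107) and rose against EpiSC by 1.34 ± 0.14 (adjusted p = 0.000531).

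Of the maintenance genes, 1 passed in 1 comparison. Dnmt1, which copies methylation at replication, was at 8.70 and 8.95 for FGF-ESC, 9.20 and 9.18 for ESC, 8.95 and 8.92 for EpiSC, and 8.06 and 8.23 for ICM. ESC minus ICM was 1.04 ± 0.13 (0.96 without ICM replicate 1), and no other comparison of Dnmt1 passed. Uhrf1, its partner at replicated DNA, passed in 0 of the 6 comparisons, with differences from -0.59 to 0.75.

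Tet1 and Tet2, which oxidise methylcytosine, were lowest in EpiSC. Tet2 was at 6.15 and 6.61 for FGF-ESC, 7.13 and 7.32 for ESC, 3.77 and 4.23 for EpiSC, and 8.09 and 8.43 for ICM. It was higher by 2.38 ± 0.22 in FGF-ESC (adjusted p = 0.000298) and by 3.23 ± 0.22 in ESC (adjusted p = 4.66e-05) than in EpiSC. Tet1 was at 7.81 and 8.29 for FGF-ESC, 8.26 and 8.42 for ESC, 7.06 and 6.98 for EpiSC, and 7.98 and 8.31 for ICM. Its difference of 1.03 ± 0.18 between FGF-ESC and EpiSC (adjusted p = 0.00642) was 0.79 without FGF-ESC replicate 2 and 0.99 without EpiSC replicate 2. The 15 tested genes of the methylation list had median differences of -0.18, 0.52 and 0.21 in FGF-ESC against ESC, EpiSC and ICM. Over all tested genes the medians were -0.06, -0.04 and -0.02, and 6.21%, 7.28% and 14.8% passed. The list count was 2 rises and 1 fall against ESC, 5 and 0 against EpiSC, and 1 and 2 against ICM. Against ESC it was 1 and 1 without FGF-ESC replicate 1, 3 and 3 without FGF-ESC replicate 2, and 0 and 1 without ESC replicate 2. Against EpiSC they were 5 and 1 without FGF-ESC replicate 1 and 4 and 1 without EpiSC replicate 2, and against ICM 2 and 2 without FGF-ESC replicate 1.

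Of the repressor genes E2f6, Mga and Pcgf6, E2f6 passed in 2 comparisons. It was at 5.70 and 5.61 for FGF-ESC, 5.77 and 5.35 for ESC, 6.63 and 6.75 for EpiSC, and 6.26 and 6.13 for ICM. It fell in FGF-ESC against EpiSC with a difference of -1.03 ± 0.15 (adjusted p = 0.00293), which was -0.98 without FGF-ESC replicate 2 and -0.97 without EpiSC replicate 2. ESC minus EpiSC was -1.13 ± 0.15 (adjusted p = 0.00154), and -0.92 without ESC replicate 2. Mga ran from 7.78 to 8.40 over the 8 arrays and Pcgf6 from 6.94 to 7.83, and neither passed in any of the 6 comparisons. All 24 listed repressors were tested. In FGF-ESC 0 rose and 1 fell against ESC, 1 rose and 1 fell against EpiSC, and 0 rose and 1 fell against ICM. Over all tested genes 6.21%, 7.28% and 14.8% passed in that order, and the repressor counts were near or below those shares. Against ESC the counts were 1 and 1 without FGF-ESC replicate 2 and 0 and 0 without either ESC array. Against EpiSC they were 1 and 0 without FGF-ESC replicate 2 or EpiSC replicate 2, and against ICM 2 and 1 without FGF-ESC replicate 2 and 1 and 1 without ICM replicate 2. With all 8 arrays in the fit, the gene other than E2f6 in the counts of FGF-ESC was Zfp42, also known as Rex1 and a marker of naive cells.

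**Figure D5:**
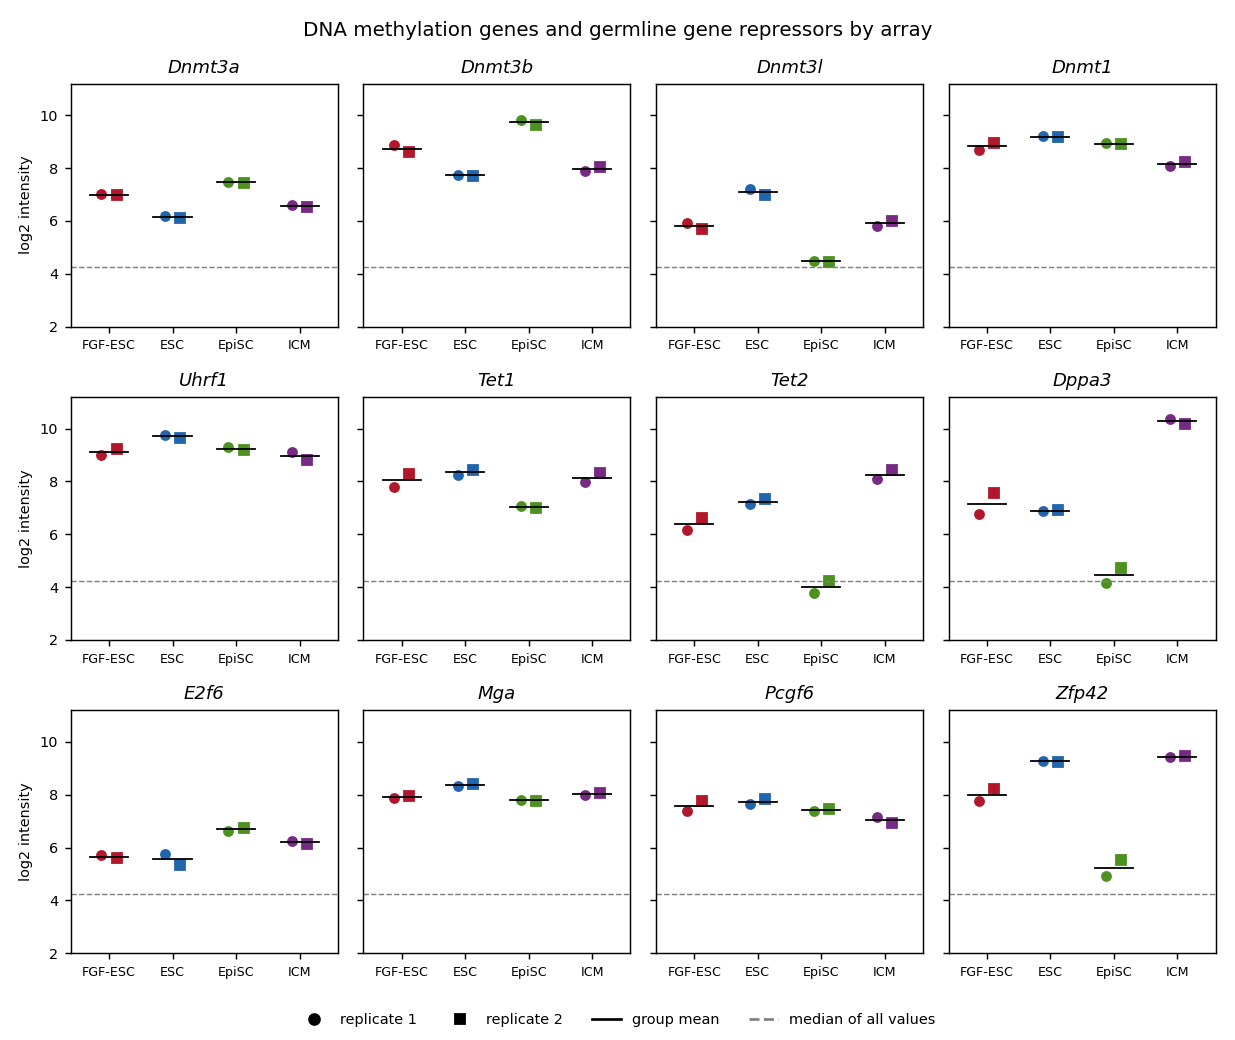
Log2 intensity (y axis) of 8 DNA methylation genes and 4 repressors on each array, with groups from left to right as FGF-ESC, ESC, EpiSC and ICM, symbols for replicates, bars for means and a dashed line at 4.24. Dnmt3b and E2f6 are highest in EpiSC, where Tet2, Dppa3 and Zfp42 are lowest.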

How the data were processed

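The authors' deposited values, 1 per probe set and array, were used as log2 intensities without further normalization. Per the submitters' processing notes, the software was Affymetrix Expression Console 1.3.1. How probes were summarised and background was treated is not stated in the labels. That the scale is log2 was read from the values, which ran from 1.65 to 12.03 on the first FGF-ESC array and much alike on the others, with array medians between 4.16 and 4.28. Of 41345 probe sets, 23521 had 1 gene in the platform annotation, 1814 several and 16010 none. A gene with several was read from the brightest by its mean over the 8 arrays.

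Genes entered the test when at least 2 arrays exceeded the overall median. The tests used limma 3.58.1 (R 4.3.3), with a means model over all 8 arrays, contrasts and eBayes, and Benjamini-Hochberg adjustment over 13597 genes in each of 6 comparisons. There are 4 residual degrees of freedom. The fits were tested on simulated data. The number of arrays limits the precision. Promoter windows and motifs came from RefSeq tables.

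The 10 genes and the gene lists were chosen with earlier results of these data known. Named genes are the 10, up to 4 genes with the smallest adjusted p per list and comparison, a set of methylation and repressor genes, and genes like Gtsf1l. Khdc3, Ooep, Klf4, Fgf5, Fgf8, Cer1, Foxa2, Gata6, Pdgfra, Elf5, Zp1, Zp2 and Zp3 were named as markers. Alternatives were other normalization, filters, probe sets, samples, eBayes settings and fold minimum, a replicate block, and leaving out each array.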

Additional observations from a re-analysis of the deposited data

How the results depend on the processing

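Of the 24 differences of germline genes that passed, 19 passed in every alternative in which the gene was tested, and 5 were lost in at least 1, as given in the text. None changed sign. Of the 30 that did not pass, 3 passed in at least 1 alternative that kept the fold minimum. Between FGF-ESC and ESC 1 germline gene passed, with 0 in a fit of these 2 groups alone and 4 with no fold minimum. Between FGF-ESC and EpiSC it was 5, with 3 under a stricter filter, which tests fewer genes, and 8 with no fold minimum. Leaving out each array in turn gave 0 to 1 between FGF-ESC and ESC, 5 to 6 between FGF-ESC and EpiSC, 5 to 6 between FGF-ESC and ICM, 3 to 4 between ESC and EpiSC, 3 between ESC and ICM and 5 between EpiSC and ICM. The sign turned for 3 differences near 0, none of which passed: Gtsf1l in ESC minus ICM (leave-one-out -0.082 to 0.087, also below 0 at -0.020 without ESC replicate 2), Piwil2 in EpiSC minus ICM (leave-one-out -0.086 to 0.044, and 0.0083 without ICM replicate 2) and Tdrkh in FGF-ESC minus ICM (0.030 with quantile normalization, leave-one-out -0.17 to 0.046, and 0.028 without FGF-ESC replicate 1). The cause was not tested.

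With no fold minimum 2087 genes passed between FGF-ESC and ESC, against 844, and 2692, 4984, 2584, 4488 and 5219 in the other 5 comparisons, against 990, 2011, 1001, 1548 and 2078. In a fit of FGF-ESC and ESC alone 526 passed. With the replicate number as a block the counts of germline genes were 1, 5, 6, 4, 3 and 5 in the 6 comparisons, the same as without it, and no call of these genes changed. The labels do not say that numbers pair samples, and the replicate differences of 2 groups correlated across genes at -0.09 to 0.04. Of 109 differences of listed genes that passed, 73 passed in every alternative in which they were tested. Levels under 4.24 limit what can be read of Asz1, Stk31, Piwil2 and Tdrkh outside the group where each is bright. Means under 4.24 set the same limit for Dazl in ESC, EpiSC and ICM and for Mael in ESC and EpiSC. They also do so for Ddx4, Hormad1 and Gtsf1l in EpiSC.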

Other observations

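Among germ cell regulators, Kit and Tcl1 ran against the genes that were highest in FGF-ESC. Kit, the receptor that primordial germ cells need for survival, was at 5.59 and 6.31 for FGF-ESC, 7.37 and 7.36 for ESC, 5.16 and 5.45 for EpiSC, and 4.95 and 4.85 for ICM. Its difference between FGF-ESC and ESC was -1.42 ± 0.22 (adjusted p = 0.00549), a call lost when ESC replicate 1 (0.0605) or ESC replicate 2 (0.0544) was left out, in a range of 0.000105 to 0.0605. Tcl1, an AKT cofactor, had -1.88 ± 0.26 (adjusted p = 0.00351, and 0.0504 without ESC replicate 1, in a range of 0.000105 to 0.0504). It was at 4.61 and 5.45 for FGF-ESC, 7.02 and 6.80 for ESC, 3.62 and 3.55 for EpiSC, and 4.67 and 5.12 for ICM. Tex14, a protein of germ cell bridges, was also highest in ESC, at 5.43 and 5.88 for FGF-ESC, 6.61 and 6.70 for ESC, 4.96 and 4.73 for EpiSC, and 4.92 and 5.21 for ICM.

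In FGF-ESC and ESC most of the germline genes were higher on replicate 2. Of the 9, 7 were higher on replicate 2 and 2 on replicate 1 of FGF-ESC, with a median of replicate 2 minus replicate 1 of 0.42, while 53.4% of all tested genes were higher on replicate 2 (median 0.02). The counts were also 7 and 2 within ESC (median 0.12), where 49% of all tested genes were higher on replicate 2. They were 6 and 3 within EpiSC (median 0.09), near the share of 58% over all tested genes. Within ICM they were 3 and 6 (median -0.17), with 52.4% over all tested genes. Replicate numbers name samples and do not pair them across groups. The fibroblast level was 8.61 and 7.44 on replicates 1 and 2 for FGF-ESC, 4.51 and 4.52 for ESC, 5.05 and 5.30 for EpiSC, and 4.47 and 4.65 for ICM. Piwil2 and Asz1 were the 2 genes higher on FGF-ESC replicate 1. The part of the fibroblast genes in these gaps was not tested.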
